A study of Mus musculus with 20 samples.

Results

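Messenger RNA of 10 regulators of growth hormone signalling was followed in the liver of male mice that had lost their testes, had been exposed to intermittent hypoxia, or both. The genes were taken by symbol from the table of gene counts, and all 10 of the 10 named were found among its 36106 genes and passed the filter on low counts. They are the growth hormone receptor Ghr, the kinase Jak2, the transcription factors Stat5a and Stat5b, the feedback inhibitors Socs2 and Cish, and the transcription factors Bcl6, Cux2, Onecut1 and Hnf4a. There were 4 groups: 4 sham-operated mice in normoxia (Sham_Nx), 5 sham-operated mice in intermittent hypoxia (Sham_IH), 5 orchiectomized mice in normoxia (ORX_Nx) and 5 orchiectomized mice in intermittent hypoxia (ORX_IH). Orchiectomy removes the testes the main source of testosterone. Intermittent hypoxia, repeated drops of inspired oxygen that are used as a model of sleep apnoea, or normoxia lasted 2 weeks. Mouse 1 of Sham_Nx was not analysed here. Strain and age are not given in the sources used here, no transgene is named in the labels, and each library is liver RNA of 1 mouse, with no mouse used for more than 1.

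Growth hormone binds its receptor GHR on the hepatocyte, the kinase JAK2 bound to the receptor is activated, and STAT5A and STAT5B are phosphorylated, pair up and move to the nucleus to bind DNA. In rodents the pituitary of males releases the hormone in separated pulses, the release in females is closer to continuous, and this pattern, which depends on gonadal steroids, sets much of the sex difference of liver transcripts, mainly through STAT5B. SOCS2 and CISH are made in response to STAT5 and dampen the signal. BCL6 is a repressor that is higher in male liver and can occupy STAT5 sites, while CUX2 is a repressor of male-biased genes that is found mainly in female liver. ONECUT1, also called HNF6, responds to growth hormone, and HNF4A is a nuclear receptor that maintains hepatocyte gene expression. RNA abundance shows neither hormone release nor STAT5 phosphorylation, which were not measured in these data.

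In the counts table the identifiers are ENSMUSG00000055737 for Ghr, ENSMUSG00000024789 for Jak2, ENSMUSG00000004043 for Stat5a, ENSMUSG00000020919 for Stat5b, ENSMUSG00000020027 for Socs2, ENSMUSG00000032578 for Cish, ENSMUSG00000022508 for Bcl6, ENSMUSG00000042589 for Cux2, ENSMUSG00000043013 for Onecut1 and ENSMUSG00000017950 for Hnf4a.

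The STAT5 dimer binds the palindrome TTCNNNGAA, which reads the same on both strands. It was searched in RefSeq promoter windows of 300 bases, from 250 bases before to 50 after each listed start, in build GRCm38.p6, an older build than the GRCm39 of the submitters' processing notes. Windows were at hand for 9 of the 10 genes, 15 windows in all, and Socs2 had none. Of 32851 windows of all genes, 8.3% held at least 1 match, 0.457% at least 2 and 0.0335% at least 3. Among the 10 genes, Cish and Bcl6 held matches, in 3 of the 15 windows, and the stretches that carry them are shown because these genes showed opposite patterns across the livers described below. Capitals mark the matches.
Cish, chr9:107296654-107296683, plus strand: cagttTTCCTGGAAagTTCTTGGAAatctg
Bcl6 at one listed start, chr16:23981353-23981461, minus strand: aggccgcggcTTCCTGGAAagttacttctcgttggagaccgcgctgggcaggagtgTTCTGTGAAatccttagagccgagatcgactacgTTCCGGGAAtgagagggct
Bcl6 at its other matching start, chr16:23988952-23988980, minus strand: agcaaattagTTCTCAGAAttccagaggc
The Cish stretch of 30 bases, from −5 to 25 counted from the start with no base 0, held 2 matches, and all of it lies in an exon and untranslated region of transcript Cish-201 and within the annotated gene Gm17040. The stretch of 109 bases of Bcl6, from −178 to −70, held 3 matches and lies inside the Bcl6 gene outside any annotated exon. The third stretch, of 29 bases from −128 to −100, held 1 match and overlapped no annotated gene. The core bound by ONECUT1, ATTGAT on either strand, was present in 7.54% of all windows and, among the 10 genes, in 1 window of Hnf4a, from −59 to −54. ATCGAT, which CUX proteins and ONECUT1 can bind, was present in 0.925% of all windows and, among the 10 genes, in 1 window of Cux2, from −72 to −67. A match of letters is a description of the reference sequence and not a measured binding site.

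Libraries held 29.3 to 69.6 M estimated counts, and the lowest count of any of the 10 genes in a library was 130, for Cux2. The hepatocyte markers were present in every library, with a summed level of 69470 to 112593 counts per 1000000 counts (CPM). Some livers stood apart in markers of other cells. The sum of 10 skeletal muscle genes was 1008 CPM in ORX_IH 1, 592 in ORX_IH 2, 166 in Sham_Nx 2 and 38.3 in Sham_Nx 3, and at most 8.60 elsewhere. That of 11 pancreatic acinar genes was 1291 CPM in Sham_IH 5, 550.1 in Sham_Nx 5 and 226 in ORX_IH 1, and at most 25.4 elsewhere. The sum of 12 Kupffer cell genes reached 1284 CPM in ORX_Nx 4 and 843 in ORX_Nx 5, the sum of 10 acute phase genes reached 13652 and 11883 CPM in the same livers, and elsewhere these sums stayed at or under 536 and 7416 CPM. No marker of these 4 lists was at 0 in every library. In bulk liver RNA, a change in the number of Kupffer cells and a change in RNA per cell cannot be told apart. The source of the muscle and pancreatic transcripts was not tested.

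Per length of transcript, the 10 genes spanned a wide range in Sham_Nx. Hnf4a was the most abundant with a mean of 202 reads per kilobase per 1000000 reads (RPKM), followed by Ghr with 163 RPKM. Onecut1 had 38.3, Socs2 30.2, Bcl6 13.1, Stat5b 7.89, Cish 5.09, Stat5a 4.26, Jak2 3.91 and Cux2 1.47 RPKM. All further levels compare one gene between livers and are in CPM, scaled by the trimmed mean of M-values (TMM). Fold changes are on the log2 scale, with a standard error (SE). Calls rest on edgeR p-values adjusted by Benjamini-Hochberg (BH) over all 16164 genes tested, with 0.05 as the limit.

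**Figure D1:**
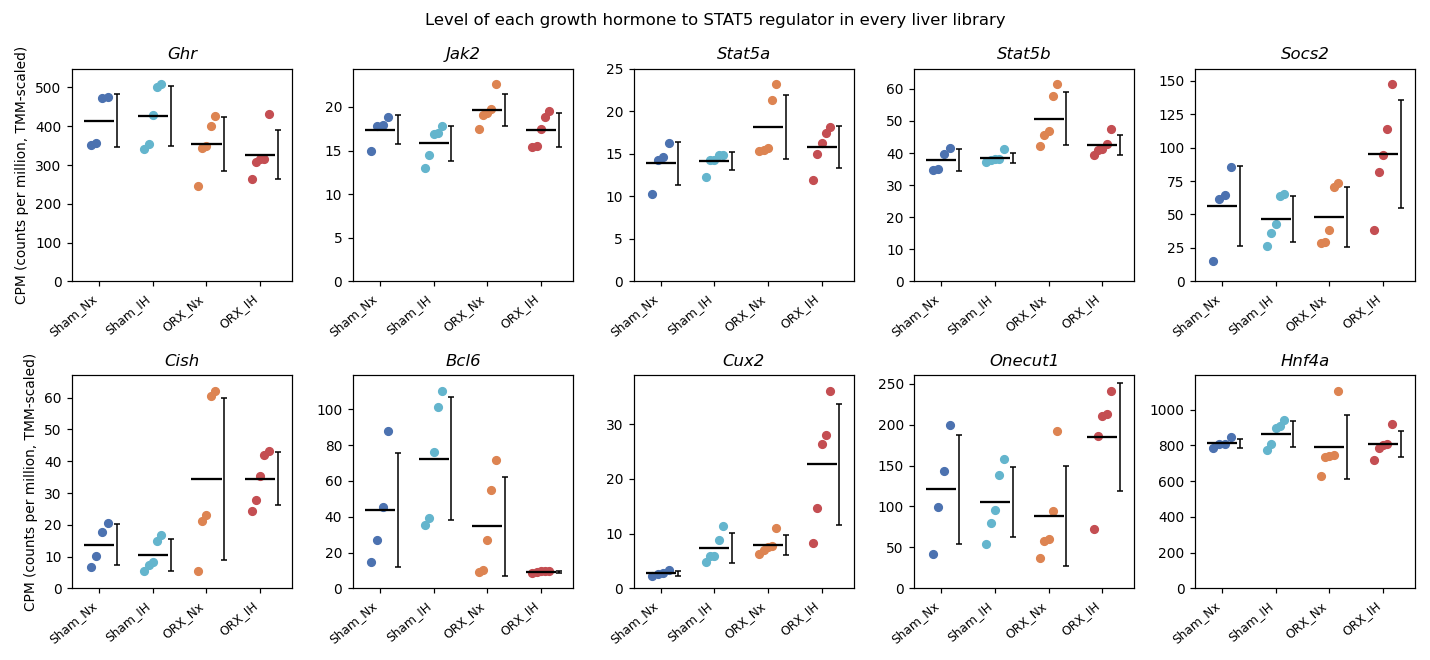
CPM (vertical axes, linear, from 0) of the 10 genes in each of the 19 liver libraries (points), by group, with bars for the group mean and SD. The 5 ORX_IH livers lie between 8.52 and 9.75 CPM for Bcl6, under every sham-operated liver, while Cux2 is lowest in Sham_Nx and highest in ORX_IH.

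Orchiectomy in normoxia (ORX_Nx against Sham_Nx) raised 2 of the 10 genes, Cux2 and Stat5b, and lowered none, where 14.3% of all genes tested were called in either direction, 7.88% higher and 6.46% lower. The groups did not overlap for these 2 genes, as was the case for 12.3% of all genes. Orchiectomy under intermittent hypoxia (ORX_IH against Sham_IH) raised Cux2 and lowered Bcl6, 2 of the 10, where 2.88% of all genes were called, 1.31% higher and 1.57% lower. In that comparison the groups did not overlap for Bcl6 and Cish, where this held for 5.85% of all genes. Under intermittent hypoxia none of the 10 passed in sham-operated mice, where 0.303% of all genes were called (0.099% higher, 0.204% lower), nor in orchiectomized mice, where 0.0742% were called, 0.0186% higher and 0.0557% lower. Without adjustment edgeR gave 1 and 5 of the 10 a p under 0.05 in these 2 comparisons, where 2125 and 2758 of all 16164 genes had one. DESeq2 called 1 (Cux2) and 2 (Cux2 and Bcl6) of the 10, and 362 and 689 of all genes. Limma-trend on the deposited log2 values called 0 of the 10 in both, and 62 and 0 of all genes. The groups did not overlap for Cux2 alone under hypoxia after sham operation, where this held for 8.51% of all genes, and for none of the 10 after orchiectomy, where this held for 2.3%. The comparisons share groups and are therefore not independent of each other.

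Averaged over both exposures, orchiectomy raised Stat5b, Cish and Cux2 and lowered Bcl6, 4 of the 10, where 22% of all genes were called, 11.8% higher and 10.1% lower. In the same average 11 of 12 Kupffer cell genes, 10 of 16 lymphocyte genes tested and 7 of 10 acute phase genes were called higher, and 9 of 11 pancreatic acinar genes lower. The summed lymphocyte genes lay at 6.62 to 9.77 CPM in Sham_Nx, 6.65 to 7.42 in Sham_IH, 12.2 to 30.9 in ORX_Nx and 9.42 to 21.1 in ORX_IH. The part of these cells in the values of the 10 genes was not tested. Averaged over both operations, intermittent hypoxia raised Cux2, 1 of the 10, where 4.53% were called, 1.96% higher and 2.57% lower. The median absolute log2 fold change of the 10 genes was 0.36 after orchiectomy in normoxia and 0.60 after orchiectomy under hypoxia, beside 0.20 and 0.14 over all genes tested. Under hypoxia it was 0.17 in sham-operated and 0.23 in orchiectomized mice, beside 0.14 in both over all genes.

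**Figure D2:**
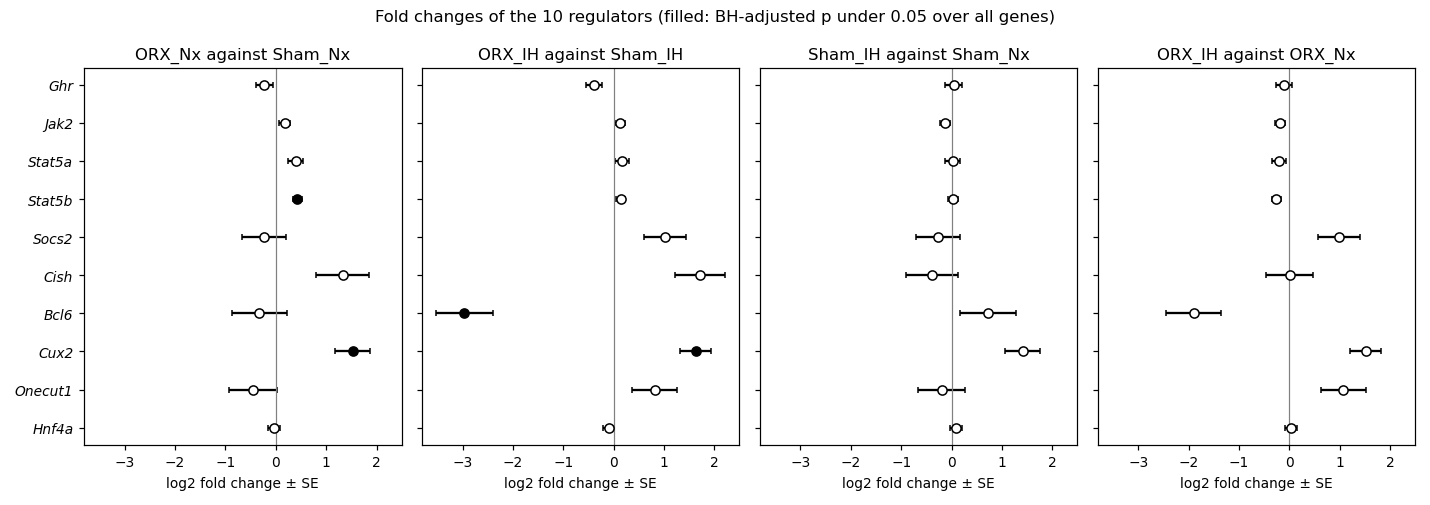
log2 fold change (horizontal axis) with its SE (bars) for the 10 genes in the comparisons of orchiectomy and of intermittent hypoxia. The 95% interval, which is wider than the bars drawn, lies above 0 for Cux2 in the 4 comparisons of groups. That of Bcl6 lies below 0 for orchiectomy under hypoxia and for hypoxia after orchiectomy.

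Neither the receptor nor its kinase passed in a comparison of groups by edgeR. Ghr measured 472, 356, 353 and 474 CPM in Sham_Nx mice 2 to 5, 428, 342, 355, 508 and 501 CPM in Sham_IH mice 1 to 5, 426, 401, 344, 350.1 and 247 CPM in ORX_Nx mice 1 to 5, and 263, 316, 317, 432 and 307 CPM in ORX_IH mice 1 to 5. ORX_Nx 5 was the lowest of the 19 livers, the next 4 were ORX_IH livers, and all groups overlapped. The difference between ORX_IH and Sham_IH was −0.38 ± 0.16 (log2 ± SE; edgeR BH-adjusted p = 0.216), and averaged over exposures orchiectomy gave −0.30 ± 0.12 (edgeR BH-adjusted p = 0.0655). That average passed in DESeq2 (BH-adjusted p = 0.0383) and in edgeR without Sham_IH 2 (0.0489), ORX_Nx 1 (0.0465) or ORX_IH 4 (0.0251).

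Jak2 averaged 17.4 ± 1.66 CPM (mean ± SD) in the 4 Sham_Nx livers, 15.8 ± 2.02 in the 5 Sham_IH livers, 19.6 ± 1.87 in the 5 ORX_Nx livers and 17.4 ± 1.90 in the 5 ORX_IH livers. The highest of its log2 fold changes in size was −0.18 ± 0.10, for hypoxia after orchiectomy (edgeR BH-adjusted p = 0.363), and no comparison of groups passed. Without scaling factors its average for orchiectomy passed (0.28, edgeR BH-adjusted p = 0.0130), where the median of all genes stood at 0.13.

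Stat5b, the STAT5 protein on which male-biased liver genes mainly depend, rose after orchiectomy in normoxia. It measured 35.0, 39.6, 34.7 and 41.6 CPM in Sham_Nx mice 2 to 5 and 45.7, 57.8, 61.4, 46.8 and 42.1 CPM in ORX_Nx mice 1 to 5. Every ORX_Nx liver exceeded every Sham_Nx liver, by 1.35-fold on average (0.43 ± 0.10, log2 ± SE; BH-adjusted p = 0.00773 by edgeR; exact permutation p = 0.0159, two-sided, the smallest that 5 against 4 mice allow). In Sham_IH mice 1 to 5 it measured 37.7, 38.2, 41.3, 38.2 and 37.3 CPM, and in ORX_IH mice 1 to 5 it measured 41.4, 39.5, 42.9, 47.5 and 40.9 CPM. The ORX_IH livers overlapped with Sham_IH, and the difference was 0.14 ± 0.09 (log2 ± SE; edgeR BH-adjusted p = 0.451). The difference between the 2 orchiectomy effects was −0.29 ± 0.13 on the log2 scale and did not pass (edgeR, unadjusted p = 0.0392, BH-adjusted p = 0.777). The call in normoxia ended when the fit held only the 2 groups compared (0.42 ± 0.12, edgeR BH-adjusted p = 0.0646) and without the 4 livers highest in muscle genes (0.40 ± 0.13, edgeR BH-adjusted p = 0.102), which leaves 2 mice in Sham_Nx.

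Stat5a, its close relative, averaged 13.9 ± 2.53 CPM (mean ± SD) in the 4 Sham_Nx livers, 14.1 ± 1.05 in the 5 Sham_IH livers, 18.2 ± 3.77 in the 5 ORX_Nx livers and 15.8 ± 2.46 in the 5 ORX_IH livers. The log2 fold change of orchiectomy in normoxia was 0.39 ± 0.15 (edgeR BH-adjusted p = 0.0853). It passed without scaling factors (0.51, edgeR BH-adjusted p = 0.0211) and without ORX_Nx 4 and 5 (0.53, 0.0468). ORX_Nx 2 and ORX_Nx 3 held the highest levels of both genes, 21.4 and 23.2 CPM for Stat5a. Estimated counts of both were not whole in any of the 19 libraries, which shows that reads were shared with other transcripts. Which transcripts shared them was not determined, so the levels of these near-identical genes, and their sum, are uncertain. Their summed level was 51.6 ± 5.54 CPM (mean ± SD) in the 4 Sham_Nx livers, 52.7 ± 2.27 in the 5 Sham_IH livers, 69.0 ± 12.1 in the 5 ORX_Nx livers and 58.2 ± 4.83 in the 5 ORX_IH livers.

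The feedback inhibitor Cish was higher after orchiectomy. It measured 20.4, 6.72, 17.8 and 10.1 CPM in Sham_Nx mice 2 to 5 and 16.9, 7.26, 8.22, 5.61 and 14.8 CPM in Sham_IH mice 1 to 5. In ORX_Nx mice 1 to 5 it measured 60.6, 62.0, 5.45, 21.1 and 23.1 CPM, and in ORX_IH mice 1 to 5 it measured 41.9, 43.1, 35.4, 24.5 and 27.8 CPM. All orchiectomized livers but ORX_Nx 3, the lowest of the 19, lay above every sham-operated liver. Averaged over exposures the log2 fold change of Cish was 1.52 ± 0.36 (edgeR BH-adjusted p = 0.00642), a rise that passed. The single comparisons gave 1.32 ± 0.52 in normoxia (edgeR BH-adjusted p = 0.0932) and 1.72 ± 0.49 under hypoxia (edgeR BH-adjusted p = 0.0684; exact permutation p = 0.00794, two-sided, the smallest that 5 against 5 mice allow). Without ORX_Nx 3 both passed, at 1.60 (edgeR BH-adjusted p = 0.0187) and 1.72 (0.0216). Hypoxia moved it by −0.39 ± 0.51 in sham-operated and by 0.00 ± 0.47 in orchiectomized mice (edgeR BH-adjusted p = 0.819 and 0.998). Without the 4 livers highest in muscle genes the average over exposures was 1.39 ± 0.46 and did not pass (edgeR BH-adjusted p = 0.0755). Its estimated counts were not whole in 18 of the 19 libraries, and reads of the overlapping Gm17040 may have been shared with it.

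Socs2, the other feedback inhibitor, varied over a wide range in each group and did not pass in any comparison. Its estimated counts were not whole in any of the 19 libraries. It measured 85.6, 14.9, 64.5 and 61.6 CPM in Sham_Nx mice 2 to 5, 64.1, 35.9, 43.0, 26.5 and 65.0 CPM in Sham_IH mice 1 to 5, 73.5, 70.3, 29.2, 38.2 and 29.0 CPM in ORX_Nx mice 1 to 5, and 81.8, 114.1, 147, 38.3 and 94.5 CPM in ORX_IH mice 1 to 5. In ORX_IH, 4 of 5 livers exceeded every Sham_IH and ORX_Nx liver, and ORX_IH 4 lay among them. The log2 differences were 1.02 ± 0.42 from Sham_IH (edgeR BH-adjusted p = 0.207) and 0.99 ± 0.41 from ORX_Nx (edgeR BH-adjusted p = 0.231). Orchiectomy in normoxia gave −0.24 ± 0.44 (edgeR BH-adjusted p = 0.758), and the difference between the 2 orchiectomy effects was 1.26 ± 0.60 (edgeR, unadjusted p = 0.0497, BH-adjusted p = 0.781).

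Bcl6, the repressor that is higher in male liver, was low in every orchiectomized liver exposed to hypoxia. It measured 8.52, 9.15, 9.42, 9.75 and 9.70 CPM in ORX_IH mice 1 to 5 and 39.6, 76.0, 101, 110.1 and 35.5 CPM in Sham_IH mice 1 to 5. The highest ORX_IH liver lay well under the lowest Sham_IH liver, and Bcl6 was 7.79-fold lower (−2.96 ± 0.56, log2 ± SE; BH-adjusted p = 0.00593 by edgeR; exact permutation p = 0.00794). In normoxia it measured 14.8, 87.9, 26.8 and 45.5 CPM in Sham_Nx mice 2 to 5 and 9.96, 27.2, 71.7, 54.8 and 9.30 CPM in ORX_Nx mice 1 to 5. ORX_Nx 1 and ORX_Nx 5 were as low as the ORX_IH livers and the other 3 lay among the sham-operated livers, so the groups overlapped (−0.33 ± 0.54, log2 ± SE; edgeR BH-adjusted p = 0.726). No sham-operated liver was under 12 CPM, and 7 of the 10 orchiectomized livers were.

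The spread of Bcl6 also differed, with a within-group SD of log2 CPM of 1.09 in Sham_Nx, 0.76 in Sham_IH, 1.36 in ORX_Nx and 0.08 in ORX_IH, and this difference in spread was not tested. Hypoxia gave 0.73 ± 0.55 in sham-operated mice (edgeR BH-adjusted p = 0.631) and −1.90 ± 0.54 in orchiectomized mice (edgeR BH-adjusted p = 0.0981). The latter passed in DESeq2 (BH-adjusted p = 0.0187). The difference between these effects was −2.63 ± 0.78 (log2 ± SE) and did not pass after adjustment (edgeR, unadjusted p = 0.00319, BH-adjusted p = 0.537). No gene at all passed that test in edgeR, where 1025 had an unadjusted p under 0.05 and DESeq2 called 63, none of them among the 10. Of the 10 muscle genes 8 were called higher in ORX_IH than in Sham_IH, where 1.31% of all genes were. Bcl6 measured 8.52 and 9.15 CPM in the 2 ORX_IH livers high in muscle genes and 9.42 to 9.75 CPM in the other 3. Without the 4 livers highest in muscle genes the log2 fold change of orchiectomy under hypoxia was −2.91 ± 0.66 and did not pass (edgeR BH-adjusted p = 0.0676), nor did the orchiectomy average (−1.49 ± 0.44, against −1.65 ± 0.38 in all livers; edgeR BH-adjusted p = 0.0509).

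Cux2, the repressor found mainly in female liver, rose after orchiectomy in each exposure and under hypoxia averaged over both operations, and its mean was highest with both treatments. It measured 2.72, 2.66, 3.41 and 2.25 CPM in Sham_Nx mice 2 to 5 and 5.89, 8.88, 11.4, 4.77 and 5.93 CPM in Sham_IH mice 1 to 5. In ORX_Nx mice 1 to 5 it measured 7.82, 7.59, 6.30, 7.01 and 11.1 CPM, and in ORX_IH mice 1 to 5 it measured 27.97, 26.4, 36.0, 8.37 and 14.6 CPM. Every liver of the other 3 groups exceeded every Sham_Nx liver, and 4 of the 5 ORX_IH livers exceeded all others, with ORX_IH 4 among those of the single treatments. Group means were 2.76 ± 0.48 CPM (mean ± SD) in the 4 Sham_Nx livers, 7.37 ± 2.70 in the 5 Sham_IH livers, 7.96 ± 1.84 in the 5 ORX_Nx livers and 22.7 ± 11.1 in the 5 ORX_IH livers, the last of which is 8.22 times the first. The 2 groups with a single treatment differed by less than their spread.

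Orchiectomy raised Cux2 by 1.52 ± 0.34 in normoxia (log2 ± SE; BH-adjusted p = 0.00840 by edgeR; exact permutation p = 0.0159) and by 1.62 ± 0.31 under hypoxia (edgeR BH-adjusted p = 0.00675; exact permutation p = 0.0238). Averaged over exposures the rise was 1.57 ± 0.23 (edgeR BH-adjusted p = 0.000156). Hypoxia gave 1.41 ± 0.34 in sham-operated mice (edgeR BH-adjusted p = 0.0765; exact permutation p = 0.0159) and 1.52 ± 0.31 in orchiectomized mice (edgeR BH-adjusted p = 0.0506; exact permutation p = 0.0159). Averaged over operations the rise passed (1.46 ± 0.23, edgeR BH-adjusted p = 0.00326), and DESeq2 called both single comparisons (BH-adjusted p = 0.00256 and 0.000283). The difference between the 2 orchiectomy effects was 0.10 ± 0.45 on the log2 scale, with a 95% interval from −0.79 to 0.99. Departures from equal fold changes within that range are compatible with these values. In the authors' deposited table, whose test asks if the groups differ in any way, q was 0.00274 for Cux2, 0.0566 for Bcl6, 0.0624 for Stat5b, 0.201 for Cish and 0.302 for Jak2, and at least 0.499 for the other 5.

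The log2 fold changes of Cux2 stayed between 1.28 and 1.48 in the fits that ended its calls. Orchiectomy in normoxia no longer passed with library numbers 1 to 16 alone (1.28, edgeR BH-adjusted p = 0.0636), nor did orchiectomy under hypoxia without the 3 livers highest in pancreatic genes (1.47 ± 0.36, edgeR BH-adjusted p = 0.0734). Without the 4 livers highest in muscle genes, orchiectomy in normoxia (1.48 ± 0.49, edgeR BH-adjusted p = 0.106), orchiectomy under hypoxia (1.42 ± 0.37, 0.137) and the hypoxia average (1.34 ± 0.31, 0.117) did not pass. The estimated counts of Cux2 were not whole in 18 of the 19 libraries, so some of its reads were shared with other transcripts. The hypoxia effect passed in orchiectomized mice without ORX_Nx 2 (0.0490), ORX_Nx 3 (0.0456), ORX_Nx 5 (0.0370) or ORX_IH 4 (0.0454), and in sham-operated mice without ORX_IH 4 (0.0305), each an edgeR BH-adjusted p. The part of the other cell types in these results was not tested.

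Onecut1 followed Socs2 in its spread and passed in no comparison. It measured 199.7, 41.5, 143.3 and 98.8 CPM in Sham_Nx mice 2 to 5, 158, 96.0, 79.7, 54.0 and 138.97 CPM in Sham_IH mice 1 to 5, 192, 60.2, 37.3, 57.3 and 94.7 CPM in ORX_Nx mice 1 to 5, and 186, 241, 213, 73.0 and 211 CPM in ORX_IH mice 1 to 5. Of the 5 ORX_IH livers 4 lay at 186 CPM or more, above every Sham_IH liver and above all but 1 liver of each normoxia group, and all groups overlapped. Its log2 fold changes were −0.45 ± 0.47 for orchiectomy in normoxia, 0.81 ± 0.45 for orchiectomy under hypoxia and 1.07 ± 0.45 for hypoxia after orchiectomy (edgeR BH-adjusted p = 0.558, 0.370 and 0.229).

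Hnf4a passed in no comparison. It averaged 812 ± 25.3 CPM (mean ± SD) in the 4 Sham_Nx livers, 866 ± 72.2 in the 5 Sham_IH livers, 791 ± 181 in the 5 ORX_Nx livers and 807 ± 73.9 in the 5 ORX_IH livers. The log2 fold change was −0.04 ± 0.12 after orchiectomy in normoxia and −0.10 ± 0.12 under hypoxia (edgeR BH-adjusted p = 0.873 and 0.702), with 95% intervals from −0.28 to 0.20 and from −0.33 to 0.13. Its direction turned when libraries were not scaled (0.08 and 0.03).

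Across the 40 exact permutation tests, 10 genes in 4 comparisons of groups, the smallest BH-adjusted p was 0.106, so none passed after adjustment over that family.

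The livers of a group differed most in Bcl6, Cish, Onecut1 and Socs2. The within-group SD of log2 CPM was 0.94 for Bcl6, 0.90 for Cish, 0.80 for Onecut1 and 0.77 for Socs2, at percentiles 93.0, 92.1, 89.8 and 89.1 of all genes tested, whose median was 0.22. Cux2 had 0.55, Ghr 0.27 and Stat5a 0.24, and Hnf4a, Jak2 and Stat5b had 0.18, 0.16 and 0.15, under the median.

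The levels of these 4 variable genes were compared from liver to liver. Among the 9 sham-operated livers, the 4 highest in Bcl6 (76.0 to 110.1 CPM) were Sham_Nx 3 and Sham_IH 2, 3 and 4. The same 4 livers were the lowest in Cish (5.61 to 8.22 CPM, against 10.1 to 20.4 in the other 5), in Socs2 (14.9 to 43.0 against 61.6 to 85.6 CPM) and in Onecut1 (41.5 to 96.0 against 98.8 to 199.7 CPM). This grouping was chosen after its values were seen and was not tested. In ORX_Nx, mouse 3 held the highest Bcl6 and Stat5b and the lowest Cish and Onecut1, and mouse 1 held the highest Onecut1 and Socs2 with a low Bcl6. Other ORX_Nx livers did not follow this order: mouse 5 had the lowest Bcl6 (9.30 CPM) with the lowest Socs2 (29.0 CPM), and mouse 2 had high Cish (62.0 CPM) and Socs2 (70.3 CPM) with Onecut1 at 60.2 CPM.

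**Figure D3:**
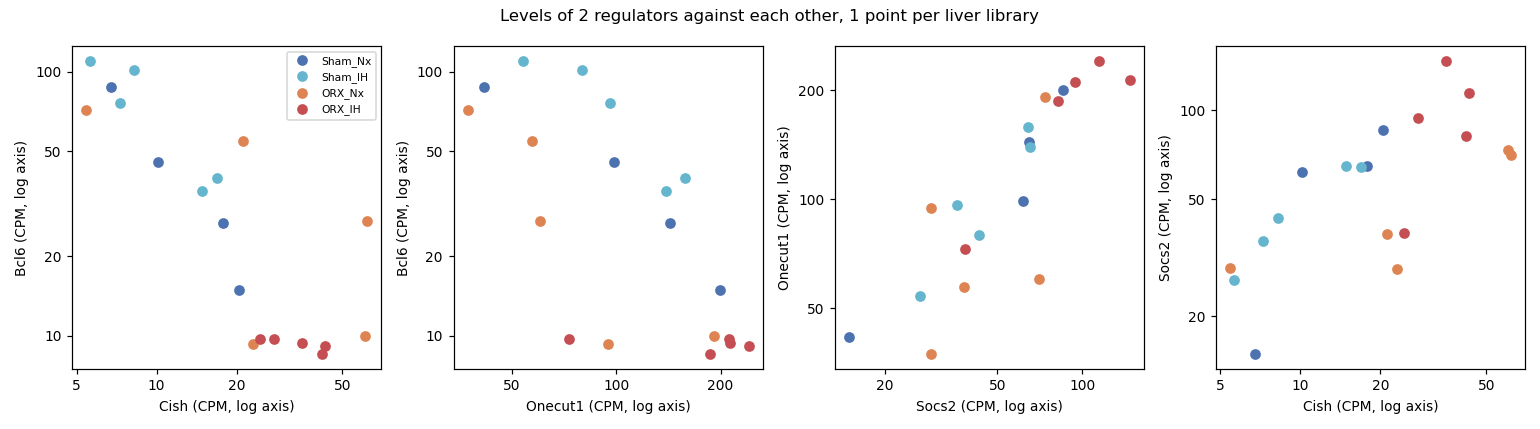
CPM of 1 regulator against another (log axes), 1 point for each of the 19 libraries, coloured by group. Bcl6 falls as Cish and Onecut1 rise in the sham-operated and ORX_Nx livers, and the 5 ORX_IH livers lie in a flat band at 8.52 to 9.75 CPM of Bcl6.

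Correlations were computed on log2 CPM after subtracting each group's mean, over the 19 libraries and all 45 pairs of the 10 genes, with 100000 permutations for each pair. The permutations take no account of the group means removed, and all genes of a library share its depth and cell content. By Pearson's r 10 pairs passed BH adjustment over the 45, 5 positive and 5 negative, and by Spearman's rho 12 passed. Bcl6 and Onecut1 gave r = −0.82 (permutation p = 6e-05, BH-adjusted 0.00135) and rho = −0.88 (permutation p = 1e-05, the smallest these permutations can give, BH-adjusted 0.000225). Within Sham_Nx, Sham_IH, ORX_Nx and ORX_IH that r was −0.98, −0.94, −0.88 and −0.39, over 4 or 5 livers each. Without the 2 livers farthest from the median of Bcl6 it was −0.84.

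Socs2 rose with Onecut1 at r = 0.83 (permutation p = 3e-05, BH-adjusted 0.00135) and rho = 0.76 (permutation p = 0.00026, BH-adjusted 0.00234), and r was 0.71 without the 2 farthest livers. Socs2 rose with Cish at r = 0.72 (permutation p = 0.00042, BH-adjusted 0.00315) and rho = 0.84 (permutation p = 1e-05, BH-adjusted 0.000225), and r was 0.77 without the 2 farthest. Cish rose with Onecut1 at r = 0.74 (permutation p = 0.00024, BH-adjusted 0.00216) and rho = 0.78 (permutation p = 0.00018, BH-adjusted 0.00202), and r was 0.89 without the 2 farthest. Each of these 3 r was positive within all 4 groups.

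Cish fell as Bcl6 rose, at r = −0.74 (permutation p = 0.00013, BH-adjusted 0.00146) and rho = −0.75 (permutation p = 0.00035, BH-adjusted 0.00262). The r was −0.78 without the 2 farthest livers and −0.98, −0.94, −0.64 and −0.83 within the groups in the order above. In ORX_IH, Bcl6 spanned only 8.52 to 9.75 CPM, so any r with Bcl6 in that group rests on small differences. Socs2 and Bcl6 gave r = −0.55 (permutation p = 0.0136), which missed adjustment (0.0511), and rho = −0.56 (permutation p = 0.0133), which passed it (0.0498). Socs2 and Bcl6 stood at −0.89 and −0.90 within Sham_Nx and Sham_IH and at −0.33 and −0.25 within ORX_Nx and ORX_IH.

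Stat5b was high in the livers of a group in which Bcl6 was high. Stat5a and Stat5b correlated with each other at r = 0.77 (permutation p = 9e-05, BH-adjusted 0.00135; rho = 0.77, permutation p = 0.00018, BH-adjusted 0.00202), and r was 0.81 without the 2 farthest livers. Any reads shared between them would bear on this value, and their part was not tested. Stat5b and Bcl6 gave r = 0.65 (permutation p = 0.0022, BH-adjusted 0.0110; rho = 0.72, permutation p = 0.00097, BH-adjusted 0.00546), and r was 0.59 without the 2 farthest. Onecut1 was inversely related to Stat5b (r = −0.67, permutation p = 0.00209, BH-adjusted 0.0110; rho = −0.73, permutation p = 0.00053, BH-adjusted 0.00341) and to Stat5a (r = −0.62, permutation p = 0.00481, BH-adjusted 0.0216; rho = −0.68, permutation p = 0.00183, BH-adjusted 0.00915). Without the 2 farthest livers these r were −0.63 and −0.55. Stat5b with Bcl6 did not pass without ORX_Nx 3 or without ORX_Nx 5, and Stat5a with Onecut1 did not pass without Sham_Nx 2 or without ORX_Nx 3. With the group means left in, Stat5b and Bcl6 gave r = 0.01 (permutation BH-adjusted p = 0.977), so their relation held within groups and not over all livers. Stat5a and Bcl6 gave r = 0.56 (permutation p = 0.0133, BH-adjusted 0.0511) and rho = 0.62 (permutation p = 0.00545, BH-adjusted 0.0223).

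Ghr was inversely related to Cux2 (r = −0.69, permutation p = 0.00084, BH-adjusted 0.0054; rho = −0.65, permutation p = 0.00291, BH-adjusted 0.0131). The r was −0.57 without the 2 farthest livers and −0.69, −0.90, −0.68 and −0.76 within Sham_Nx, Sham_IH, ORX_Nx and ORX_IH. ORX_IH 4, which had the lowest Cux2, Socs2, Cish and Onecut1 of its group, had the highest Ghr, with 432 CPM. Jak2 and Hnf4a were in none of the pairs that passed.

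**Figure D4:**
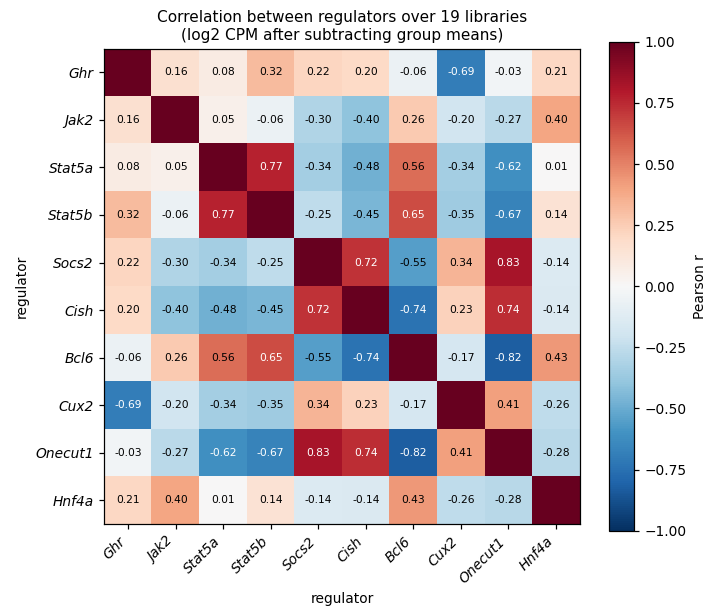
Pearson's r of group-centred log2 CPM for the 45 pairs of the 10 genes over 19 libraries, coloured from negative to positive. Onecut1, Socs2 and Cish are positively related to each other, and Bcl6 is negatively related to Onecut1 (−0.82) and Cish (−0.74).

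The genes whose log2 CPM over all 19 libraries was most like that of a regulator were taken by Pearson's r, which here includes the differences between groups and carries no test. For Cux2 they included Mmp14 (0.91), a membrane-bound matrix metalloproteinase, and the flavin-containing monooxygenase Fmo2 (0.88). For Bcl6 they were Zkscan1 (0.82), Pnma8c (0.82) and the lysosomal cholesterol transporter Npc1 (0.81). For Cish they were Rgs3 (0.91), a regulator of G protein signalling, Lratd2 (0.87) and the riboflavin kinase Rfk (0.86). For Socs2 they were the transcription factor Gata4 (0.86), Onecut1 (0.86) and the zinc finger factor Ikzf4 (0.84).

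Of 15 other components of JAK-STAT signalling, all tested, 3 rose and none fell after orchiectomy in normoxia (7.88% and 6.46% of all genes), and 1 rose after orchiectomy under hypoxia (1.31% of all genes), with medians of 0.14 and 0.06 beside 0.01 and −0.0043 over all genes (log2). The prolactin receptor Prlr, which also signals through JAK2 and STAT5, rose in both, from 193 ± 17.4 CPM (mean ± SD) in the 4 Sham_Nx livers to 389 ± 58.3 in the 5 ORX_Nx livers (1.01 ± 0.14, log2 ± SE; edgeR BH-adjusted p = 0.000234), and from 234 ± 40.4 to 390 ± 65.3 CPM (SD, n = 5 each) between Sham_IH and ORX_IH (0.74 ± 0.13, edgeR BH-adjusted p = 0.00437). Stat3, which carries interleukin signals, rose by 0.63 ± 0.19 and the adaptor Sh2b2 by 0.87 ± 0.21 in normoxia (edgeR BH-adjusted p = 0.0361 and 0.0111). Of 17 inhibitors and phosphatases, 4 rose and none fell in normoxia (7.88% and 6.46% of all genes) and none passed under hypoxia (2.88% of all genes), with medians of 0.02 and 0.09. These were Socs3 (2.46 ± 0.65), a feedback inhibitor of interleukin signalling, the adaptor Sh2b3 (0.34 ± 0.08), the receptor Sirpa (0.99 ± 0.31) and the ubiquitin ligase Cbl (0.36 ± 0.11; log2 ± SE, edgeR BH-adjusted p = 0.0188, 0.0106, 0.0392 and 0.0443). Socs3 ranged from 7.92 to 141 CPM in ORX_Nx and from 5.55 to 9.09 CPM in Sham_Nx.

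In the comparison in normoxia (7.88% of all genes higher) 11 of 12 Kupffer cell genes and 8 of 10 acute phase genes were also called higher. Under hypoxia (1.31% of all genes higher) it was 0 of 12 and 1 of 10 of these genes. Without ORX_Nx 4 and 5, the livers highest in these genes, the values of Stat3 (0.34), Sh2b2 (0.72), Sh2b3 (0.24), Sirpa (0.20) and Cbl (0.13) no longer passed, while Prlr and Socs3 did. Single livers decided other calls. Those of Stat3 and Sirpa ended without any one of ORX_Nx 4 and 5 and Sham_Nx 2, 3, 4 and 5, that of Socs3 without Sham_Nx 2 (edgeR BH-adjusted p = 0.0523) or Sham_Nx 5 (0.0567), in the fit of only the compared groups (2.44 ± 0.82, 0.0991) and with a replicate block (1.88 ± 0.58, 0.0516), and that of Cbl without any one of 13 of the 19 livers, with p up to 0.140. Prlr in normoxia held in all of these. The part of other cell types in these differences was not tested.

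Of 17 other liver transcription factors, 1 rose and 2 fell after orchiectomy in normoxia, a share near the 14.3% of all genes called, and 1 rose and 1 fell under hypoxia, where 2.88% of all genes were called, with medians of −0.06 and −0.04, and those reported here are given by name. Tox, a female-biased factor, rose by 0.85 ± 0.25 and 1.07 ± 0.24 (log2 ± SE; edgeR BH-adjusted p = 0.0326 and 0.0190), and Cux1, the relative of Cux2, fell by 0.28 ± 0.07 and 0.29 ± 0.07 (edgeR BH-adjusted p = 0.0129 and 0.0197). With libraries left unscaled Cux1 did not pass (−0.15 and −0.16). The call of Cux1 also ended without Sham_Nx 2 in normoxia and, under hypoxia, without ORX_IH 2 or Sham_IH 1, 3 or 4. The call of Tox ended without ORX_Nx 1, 2 or 4 or Sham_Nx 2, 4 or 5 in normoxia and without Sham_IH 3 or 4 under hypoxia, and in both with a replicate block (edgeR BH-adjusted p = 0.0758 and 0.0524).

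Of the 3 growth hormone-driven genes of the circulating insulin-like growth factor system, Igfbp3 rose after orchiectomy in normoxia (0.69 ± 0.21, log2 ± SE; edgeR BH-adjusted p = 0.0332), a call that ended without ORX_Nx 3, 4 or 5 or any one Sham_Nx liver, and none passed under hypoxia. Igf1, the main circulating output, averaged 528 ± 69.7 CPM (mean ± SD) in the 4 Sham_Nx livers, 527 ± 74.5 in the 5 Sham_IH livers, 489 ± 60.3 in the 5 ORX_Nx livers and 533 ± 64.3 in the 5 ORX_IH livers, differences smaller than the spread between livers.

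None of these 4 lists held a gene that passed under hypoxia in either sham-operated or orchiectomized mice by edgeR, and none held one for the difference between the orchiectomy effects. Averaged over both operations hypoxia raised 1 of the JAK-STAT components, the adaptor Shc1 (0.13 ± 0.03, log2 ± SE; edgeR BH-adjusted p = 0.0284), and lowered 1 of the inhibitors and phosphatases, the phosphatase Ptpn6 (−0.32 ± 0.09, edgeR BH-adjusted p = 0.0434), where 1.96% of all genes were higher and 2.57% lower. The call of Shc1 ended without Sham_Nx 3 or 5, Sham_IH 3 or ORX_IH 2, and that of Ptpn6 without any one of 13 of the 19 livers. Both also ended without the 4 livers highest in muscle genes (0.14, edgeR BH-adjusted p = 0.208 for Shc1 and −0.32, 0.285 for Ptpn6). Shc1, Ptpn6 and the single sex-biased genes given below for the hypoxia average were chosen after their values were seen.

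Sex-biased targets of growth hormone signalling, which respond to the loss of androgen, were measured as a check of the operation. The lists were chosen with earlier results of these data known, which limits this check. All 10 male-biased genes fell after orchiectomy in normoxia and under hypoxia (6.46% and 1.57% of all genes), with medians of −4.93 and −3.75 (log2). Of 9 female-biased genes tested 8 rose in both (7.88% and 1.31% of all genes), with medians of 7.48 and 5.44, and Cyp3a16 had too few counts. The male-biased cytochrome Cyp2d9 measured 950.0 to 1059 CPM in Sham_Nx and 60.8 to 213 CPM in ORX_Nx, and the fatty acid elongase Elovl3 107 to 218 and 0.45 to 8.45 CPM. The female-biased cytochrome Cyp2a4 measured 0.32 to 1.16 CPM in Sham_Nx and 37.8 to 171 CPM in ORX_Nx. Neither list held a gene that passed under hypoxia in sham-operated or orchiectomized mice singly (0.303% and 0.0742% of all genes). Averaged over both operations 1 male-biased gene rose, 1 male-biased gene fell and 1 female-biased gene rose under hypoxia. Of all genes 1.96% were called higher and 2.57% lower in that average. The steroid dehydrogenase Hsd3b5 rose (1.72 ± 0.40, log2 ± SE; edgeR BH-adjusted p = 0.0229), a call that ended without Sham_Nx 5 (0.0544). It measured 74.8 to 224 CPM in Sham_Nx and 96.2 to 246 CPM in Sham_IH. After orchiectomy it measured only 0.39 to 2.56 CPM in ORX_Nx and 1.77 to 27.7 CPM in ORX_IH, with the highest value again in ORX_IH 4. Its exposure groups overlapped after each operation. The arachidonic acid hydroxylase Cyp4a12a fell (−1.30 ± 0.34, edgeR BH-adjusted p = 0.0375), from 338 to 491 CPM in Sham_Nx to 98.7 to 219 CPM in Sham_IH with no overlap, a call that ended without any one of 11 of the 19 livers. Both calls ended without the 4 livers highest in muscle genes (2.08, edgeR BH-adjusted p = 0.0797 for Hsd3b5 and −1.10, 0.324 for Cyp4a12a) and without ORX_Nx 4 and 5 (edgeR BH-adjusted p = 0.0525 for Hsd3b5 and −0.71, 0.165 for Cyp4a12a). ORX_Nx 2, 3 and 4, whose Bcl6 lay within the range of the sham-operated livers, measured 148, 195 and 213 CPM of Cyp2d9, below every sham-operated liver. ORX_Nx 1 and 5, with Bcl6 at 9.96 and 9.30 CPM, had the lowest Cyp2d9 of the group, 109 and 60.8 CPM. The ORX_IH livers, with Bcl6 as low (8.52 to 9.75 CPM), all held more Cyp2d9 than these 2, at 117 to 468 CPM. The relation of Cyp2d9 to Bcl6 was not tested.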

How the data were processed

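Liver RNA of 20 male mice is described in the labels, and 19 libraries were analysed. Per the labels' protocols, RNA was selected by poly(A) and made into directional NEBNext libraries. Per the submitters' processing notes, reads went through bcl2fastq 2.20, fastp 0.23.2 and kallisto 0.46.1 with build GRCm39. The sources used here do not state whether strand was used in counting. The authors deposited estimated counts per gene, 27.5% of them not whole, and these were rounded for testing. A second deposited table gives log2 values, a score (the F-statistic of a test over all groups) and its p-value and q-value. Its normalization is not given in these sources, and its log2 values differed from log2 RPKM computed here by a median of 0.0772.

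Genes were filtered with filterByExpr (minimum count 10) and scaled by TMM, and edgeR 4.0.16 in R 4.3.3 was used for a quasi-likelihood fit to the 4 groups together. CPM are from TMM library sizes, and RPKM from the deposited mean transcript length. The SE is the fold change divided by the square root of F, and 95% intervals use the normal quantile. Two-sided exact permutation tests (SciPy 1.17.1) used log2 CPM computed with prior count 1. Alternatives were DESeq2 1.42.0, limma-trend 3.58.1 on the deposited log2 values, no count filter, no scaling, only the compared groups, a replicate block, library numbers 1 to 16, and libraries left out. Leaving sets of libraries out of the correlations was added after the data were seen.

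Chi-square per degree of freedom between libraries of a group was 19.3 to 184, so none were technical copies. A total of 3 counts equals at most 0.102 CPM, which covers counting error only. The scripts were tested on simulated data. All 10 genes are named throughout, beside genes of 4 pathway lists that passed (at most 6 a list, by size), the 3 genes most like Cux2, Bcl6, Cish and Socs2, and examples of sex-biased targets. The genes and lists were chosen with earlier results of these data known. Some genes that these rules would name are not reported here.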

Additional observations from a re-analysis of the deposited data

Results flagged for a closer look

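In each of the 40 sets of livers, 10 genes in 4 groups, the highest and lowest values were compared with the others by Dixon's criterion, which chance passes in about 1 set in 20, and 3 sets passed. Stat5a measured 12.3 CPM in Sham_IH 1, below the other 4 livers of that group at 14.2 to 14.9 CPM. Stat5b measured 41.3 CPM in Sham_IH 3, above the other 4 at 37.3 to 38.2 CPM. Hnf4a measured 1104 CPM in ORX_Nx 4, above the other 4 at 628 to 744 CPM, and that liver was also the highest of all in Kupffer cell genes (1284 CPM) and acute phase genes (13652 CPM), whose part in the value was not tested.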

How the results depend on the processing

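Of the settings tried for the fold changes of the 10 genes, 1981 kept direction and side of the threshold, 10 ended a call, 30 gave one and 49 turned the direction, the last only in values that had not been called. No call of the 10 ended when 1 library was left out. The cause was not tested where values changed, except that left-out libraries leave fewer mice.

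DESeq2 called 867 genes for orchiectomy under hypoxia (465 in edgeR), 362 for hypoxia after sham (49) and 689 after orchiectomy (12), 63 for the interaction (0) and 1415 for the hypoxia average (733), with 1 and 2 of the 10 genes under hypoxia after sham and after orchiectomy. Limma-trend called 0 genes for hypoxia after orchiectomy and put Cish at 0.024 for the hypoxia average. Without the count filter 0 and 472 genes passed for hypoxia after orchiectomy and on average. Fits of only the compared groups gave 918 genes for orchiectomy in normoxia (2319), 483 for hypoxia after sham and 1 after orchiectomy, with 1 of the 10 in each of the first 2.

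Without scaling factors the medians over all genes tested stood, in log2, at 0.14, 0.13 and 0.13 for orchiectomy in normoxia, under hypoxia and on average, against 0.013, −0.0043 and 0.0047 with scaling. Then 2362 of 2734 called genes were higher in normoxia (1274 of 2319 with scaling), 830 of 971 under hypoxia (211 of 465) and 4220 of 4722 on average (1909 of 3549), and for the hypoxia average 184 of 600 (317 of 733). Hnf4a turned to 0.081, 0.025 and 0.053 and Shc1 on average to 0.0047.

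Whether replicate numbers pair the mice was not settled. Correlations of same-numbered libraries ran from −0.20 to 0.40 and 8 of 19 libraries correlated best with a library of their own number. How many would do so by chance was not computed. With a replicate block 1794, 346, 34, 0, 0, 3130 and 531 genes were called for orchiectomy in normoxia and under hypoxia, hypoxia after sham and orchiectomy, interaction, orchiectomy average and hypoxia average, and 2, 3, 0, 0, 0, 4 and 1 of the 10, Cish being the gain (edgeR BH-adjusted p = 0.0455). Outside the 10 the block ended the calls of Socs3 (0.0516), Sirpa (0.0658), Cbl (0.0688), Igfbp3 (0.0614) and Tox (0.0758) in normoxia, of Tox under hypoxia (0.0524), of Pias4 (0.0645) for the orchiectomy average, and of Shc1 (0.0581), Ptpn6 (0.0780) and Cyp4a12a (0.0536) for the hypoxia average, each an edgeR BH-adjusted p. Library numbers 17 to 20 hold 1 mouse per group, too few for values of their own. With numbers 1 to 16 there were 1098 genes for orchiectomy in normoxia, 9 for hypoxia after sham and 380 on average, 1 of the 10 for orchiectomy in normoxia, Hnf4a at 0.019 there, and Cish and Hnf4a at −0.035 and −0.038 for hypoxia after orchiectomy.

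Without ORX_Nx 4 and 5 there were 1475, 912, 305 and 40 genes for the 4 comparisons of groups in the same order, 1 of the 10 for hypoxia after sham, Socs2 at 0.025 for orchiectomy in normoxia, Cish at −0.30 for hypoxia after orchiectomy, and Jak2 and Hnf4a at 0.043 and 0.040 for the interaction. Without the 3 livers highest in pancreatic genes there were 1101, 158, 0 and 0 genes, 2063 for the orchiectomy and 157 for the hypoxia average, 1 of the 10 for orchiectomy under hypoxia, Cish at −0.076 for hypoxia after orchiectomy, Jak2 at 0.0073 for the interaction and Ghr at 0.0038 for the hypoxia average. Without the 4 livers highest in muscle genes there were 422, 107, 2 and 0 genes, 1306 and 8 for the averages, and 0, 0, 2 and 0 of the 10 for orchiectomy in normoxia, under hypoxia and on average and for the hypoxia average. Stat5a was then at −0.12 for hypoxia after sham, Cish at −0.23 for hypoxia after orchiectomy, Stat5a, Cux2 and Hnf4a at 0.018, −0.051 and 0.0098 for the interaction and Ghr at 0.019 for the hypoxia average.

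Leaving out 1 library at a time gave 1142 to 2662, 224 to 704, 1 to 197 and 0 to 232 genes in the 4 comparisons and 288 to 1005 for the hypoxia average, with 0 to 1 of the 10 for hypoxia after each operation. For orchiectomy in normoxia Socs2 lay from −0.56 to 0.031, Bcl6 from −0.78 to 0.24 and Hnf4a from −0.19 to 0.023. For hypoxia after sham Stat5a lay from −0.094 to 0.11, Stat5b from −0.0076 to 0.080, Onecut1 from −0.50 to 0.15 and Ghr from −0.035 to 0.12, and after orchiectomy Cish from −0.27 to 0.32 and Hnf4a from −0.036 to 0.18. For the interaction Jak2 lay from −0.11 to 0.023, Cux2 from −0.11 to 0.31 and Hnf4a from −0.12 to 0.085, and for the averages Ghr from −0.096 to 0.0031 (hypoxia) and Onecut1 from −0.072 to 0.36 (orchiectomy).

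Of the 45 correlations 10 passed, 9 to 14 on leaving out 1 library, 14 without ORX_Nx 4 and 5, 9 without the muscle-rich and 10 without the pancreas-rich livers, 10 with numbers 1 to 16 and 8 without centring. Stat5b with Bcl6 did not pass with numbers 1 to 16 (r = 0.55), Stat5a with Onecut1 without the muscle-rich livers (−0.63) or without centring (−0.52), nor Stat5b with Onecut1 without centring (−0.51).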
